A study of Mus musculus with 2 samples.

Results

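Non-contractile pericytes (PCs) from the stria vascularis (SV), a tissue of the lateral wall of the cochlea with its own capillary bed, are described here as 57 of the 201 cell barcodes of an NG2-DsRed library (28.4%, 95% interval 22.2 to 35.1), from a series of 834 barcodes in 2 libraries. The barcodes were chosen from their own transcript counts. A barcode was taken when at most 10% of its unique molecular identifiers (UMIs) were mitochondrial, at least 3 of the 5 PC genes Pdgfrb, Rgs5, Vtn, Notch3 and Cspg4 had a UMI, at most 1 of the 6 endothelial genes Pecam1, Cdh5, Cldn5, Flt1, Egfl7 and Ramp2 had a UMI, the smooth muscle genes Acta2, Tagln and Myh11 together had at most 2 UMIs, and Dct, Tyr and Kcnj10 were not all present. These 17 genes cannot be findings, and because every other gene was counted in the same barcodes, all contrasts below are descriptions without a test. The library pooled SV from 20 cochleae of 10 NG2-DsRed mice aged 1 to 3 months, and a second library of the series came from 10 Tie2-GFP mice of the same age range. In the NG2-DsRed line the red protein is driven by the promoter of Cspg4, so any cell that uses this promoter can carry it, and the methods state that cells were sorted by fluorescence only when enrichment was needed. Males and females were both used, and the labels give no other allele and no treatment. The labels name this library's cells as pericytes. With 1 library there was no replicate, and every 95% interval covers counting error only.

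PCs are the mural cells of capillaries and lie within the basement membrane of the endothelial cells (ECs). They depend on PDGF-B released by the endothelium, which they sense through Pdgfrb. On arterioles and on the first branches of a capillary bed, mural cells carry smooth muscle actin and myosin and set vessel diameter, whereas mural cells of the mid-capillary carry little of either. PCs of many organs have an ATP-sensitive potassium channel built from the pore subunit Kir6.1 (Kcnj8) and the sulfonylurea receptor SUR2 (Abcc9), which couples the energy state of the cell to its membrane potential.

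Kcnj8 and Abcc9 were not used to choose the barcodes, and they were among the genes with the largest ratios to the rest of the library. The genes are neighbours on the minus strand of mouse chromosome 6 in GRCm38, the assembly called mm10 in the submitters' processing notes. Kcnj8 lies at chr6:142564837-142571614 and Abcc9 at chr6:142587862-142702315, with 16.2 kb between them. Because both genes were highest in the same class of barcodes, the 200 bases from 250 to 51 before each RefSeq start site (GRCm38.p6, minus strand) are shown, at chr6:142571665-142571864 for Kcnj8 and chr6:142702325-142702524 for Abcc9. Capitals mark matches to TGGGAA, the core bound by the Notch partner RBPJ, or to CATTCC, the core bound by TEAD factors, on either strand.
Kcnj8: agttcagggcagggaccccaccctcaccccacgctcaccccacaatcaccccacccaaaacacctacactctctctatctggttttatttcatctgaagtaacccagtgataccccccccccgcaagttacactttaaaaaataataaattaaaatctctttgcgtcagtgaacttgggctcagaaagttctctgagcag
Abcc9: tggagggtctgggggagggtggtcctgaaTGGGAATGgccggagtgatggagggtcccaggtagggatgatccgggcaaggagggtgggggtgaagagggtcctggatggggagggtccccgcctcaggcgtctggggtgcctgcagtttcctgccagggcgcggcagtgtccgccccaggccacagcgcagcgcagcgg
Abcc9 held 1 match to each motif, which overlap by 4 bases, and Kcnj8 held none. Of all 32851 RefSeq promoter windows of this length, 17.9% held TGGGAA and 10.7% held CATTCC. These matches describe letters in the windows and no more.

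Depth differed between the classes of barcode. The 57 non-contractile PCs held 150791 UMIs, from 533 to 10561 per barcode with a median of 2417, and a median of 1322 genes. The nearest class, called contractile mural here, met the same rule except that Acta2, Tagln and Myh11 had 3 or more UMIs, and it held 42 barcodes with a median of 3871.5 UMIs. The other classes were 36 barcodes with both PC and EC genes (median 10573 UMIs), 27 EC barcodes (4565), 25 barcodes of intermediate cells, the pigment cells of the SV (10383), 4 over the mitochondrial limit and 10 that fitted no class. No barcode sequence was shared with the Tie2-GFP library. Of the 57 barcodes, 41 had 0 UMIs of the smooth muscle genes, 11 had 1 and 5 had 2, while 5 barcodes just outside had 3. All 5 PC genes were present in 40 of the 57, 4 in 10 and 3 in 7, and 50 had no EC gene of the rule. The study's own limits on genes, UMIs, mitochondrial and ribosomal share were met by 55 of them. Signs of RNA composition also differed. Ribosomal protein genes made up 4.48% of UMIs in non-contractile PCs, 7.73% in contractile mural barcodes and 10.7% in all other barcodes together, and the nuclear RNA Malat1 stood at 123913, 87047 and 58375 CPM (UMIs of the gene per 1000000 summed UMIs) in the same order. Whether these shares play a part in the differences below was not tested.

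Of the 57 barcodes, 3 stood apart, and several results below are given both with and without them. The deepest (10561 UMIs, 3 PC genes) held 1433 of the 1614 UMIs of Ptgds, which encodes prostaglandin D synthase, 21 of 27 UMIs of the basal cell claudin Cldn11 and 25 of 30 of the connexin Gjb6. The next deepest (7092 UMIs, 5 PC genes) held 168 UMIs of Ptgds and the remaining 6 of Cldn11. A shallow barcode of 1301 UMIs held 10 UMIs of Dct, an enzyme of pigment synthesis. The other 54 barcodes together had 7 UMIs of Ptgds, 0 of Cldn11, 2 of Gjb6 and 2 of Dct. The 2 deep barcodes still held 12 and 4 UMIs of Kcnj8 and Abcc9 together, and the shallow one held none. Markers of basal and pigment cells sat beside PC genes in single barcodes. Whether these were doublets was not tested, since no doublet caller was run here.

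**Figure D1:**
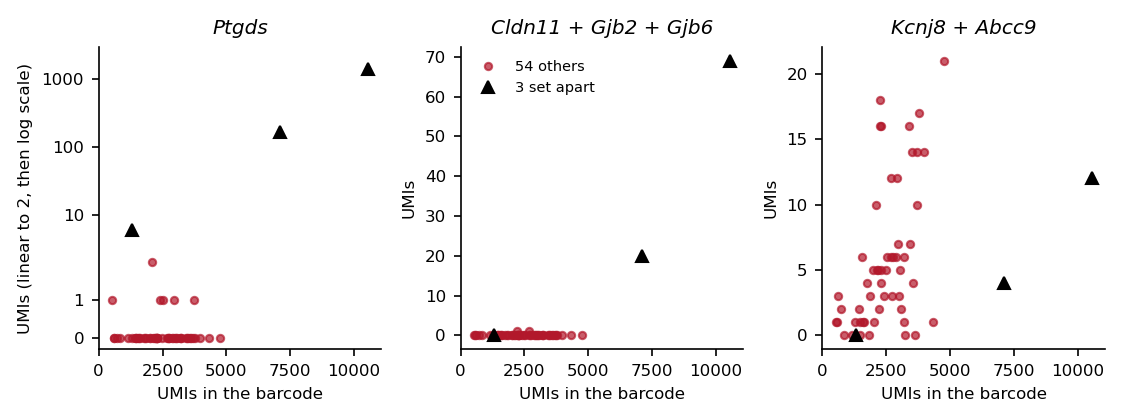
UMIs of 3 gene sets against total UMIs in each of the 57 non-contractile PC barcodes, 1 point per barcode. Black triangles are the 3 barcodes with at least 5 UMIs of Cldn11 and Dct together, and 2 of them hold nearly all Ptgds, Cldn11, Gjb2 and Gjb6 UMIs, while Kcnj8 and Abcc9 UMIs come mainly from the other 54.

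The label was checked against the channel genes. A UMI of Kcnj8 or Abcc9 was present in 50 of the 57 barcodes, both in 36, and the 7 with neither had a median of 1475 UMIs. Kcnj8 reached 955 CPM (805 to 1124) in non-contractile PCs, with single barcodes between 0 and 3956 CPM around a median of 696. It stood at 286 CPM (215 to 373) in contractile mural barcodes, at 127 CPM (94.3 to 166) in barcodes with PC and EC genes, at 21.8 CPM (5.94 to 55.9) in EC barcodes and at 26.5 CPM (10.7 to 54.6) in intermediate cell barcodes, where all 7 UMIs came from 1 barcode. The order of the last 2 is within counting error, and single barcodes of the first 3 classes overlap.

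For Abcc9 the first 3 classes stood in the same order, from 1234 CPM (1063 to 1424) in non-contractile PCs through 307 CPM (233 to 397) in contractile mural barcodes and 184 CPM (144 to 231) in barcodes with PC and EC genes to 27.3 CPM in EC and 11.4 CPM in intermediate cell barcodes. The share of non-contractile PCs with a UMI was 73.7% for Kcnj8 and 77.2% for Abcc9 at a median depth of 2417 UMIs. In intermediate cell barcodes, which should lack this channel, the shares were 4% and 8% at a median depth of 10383 UMIs. After each barcode was thinned at random to 1467 UMIs, which left out 9 non-contractile PCs and 1 intermediate cell barcode, the shares in non-contractile PCs were 70.8% and 68.8%, against 0 and 4.17%. Both genes were found in 27 of the 48 thinned PC barcodes, 1 of them in 13 and neither in 8. The nearer classes also held these genes. At full depth, 13 of the 42 contractile mural barcodes held both and 21 neither. Of the 36 barcodes with PC and EC genes, 17 held both and 8 neither. After thinning, both were found in 7 contractile mural barcodes and neither in 26, and in 0 and 24 of those with PC and EC genes. Without the 3 barcodes that stood apart the levels were 1039 CPM for Kcnj8 and 1343 CPM for Abcc9. Of the PC genes that the rule used, Rgs5 was found in 57, Vtn in 56, Pdgfrb in 55, Notch3 in 49 and Cspg4 in 44 barcodes. Cspg4, whose promoter drives the reporter, was also present in 80% of the intermediate cell barcodes, at 140 CPM.

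**Figure D2:**
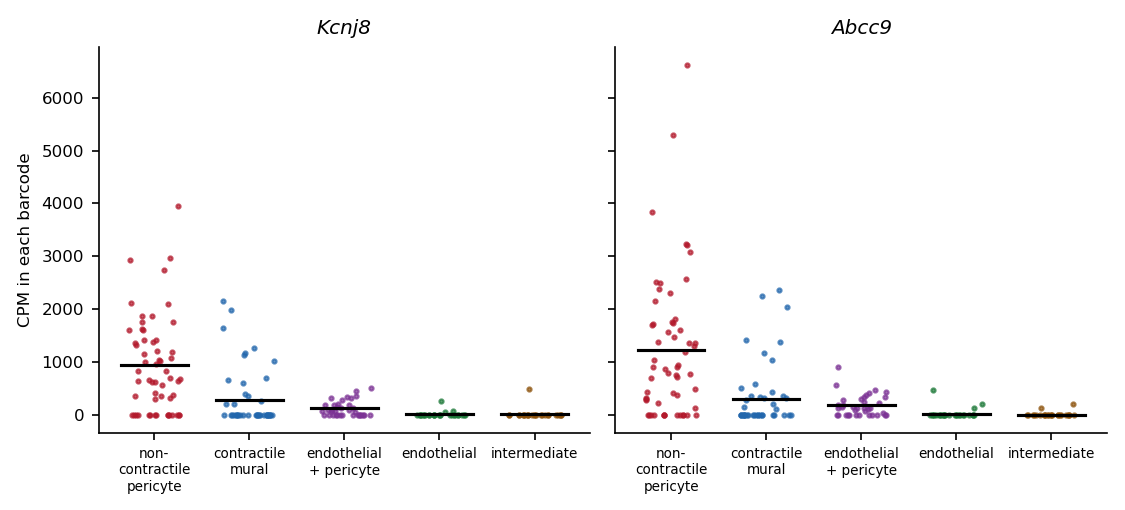
CPM of Kcnj8 (left) and Abcc9 (right) in each barcode of 5 classes of the NG2-DsRed library, 1 point per barcode, with a horizontal line at the CPM of the summed UMIs. The line is highest in non-contractile PCs, at 955 and 1234 CPM, and the points of the first 3 classes overlap.

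Against all 144 other barcodes of the library, 4384 genes had at least 50 UMIs over both sets. Of these, 577 were at least 2-fold higher in non-contractile PCs (13.2%) and 765 were at least 2-fold lower (17.4%). The genes of the rule were not taken out of these counts or of the other counts over all genes below. The 20 genes with the largest ratios, among those with a UMI in at least 25% of the 57 barcodes, all stayed above 2-fold without the 3 barcodes that stood apart. None owed more than 30.8% of its UMIs to 1 barcode, and they were found in 17 to 44 of the 57. Adcyap1r1, the receptor of the vasodilator peptide PACAP, came first with 245 CPM here and 20.3 CPM elsewhere in the library (log2 ratio 3.58, 2.79 to 4.42). It was followed by the laminin chain Lamb1 at 3.44 (2.65 to 4.27), the transmembrane protein Plxdc1 at 3.29 (2.58 to 4.02) and then Abcc9 at 3.25 (2.93 to 3.58). The laminin chain Lama2 had a log2 ratio of 3.18 (2.64 to 3.74) and Kcnj8 one of 3.15 (2.79 to 3.52). Also among the 20 were Raph1, Steap4, Col4a4, Rem1, Pcdh19, Pde8b, Egflam, Ogn, Adap2, Ggt5, P2ry14, Zfhx4 and Itga7, with log2 ratios between 2.76 and 3.04. Of the 144 other barcodes, 42 were contractile mural and 36 held PC and EC genes together, so the ratios also follow which cells the library held.

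Of 25 measured PC markers outside the rule, 23 were at least 2-fold higher than in the other barcodes and 0 lower, beside 13.2% and 17.4% of all genes. Their median log2 ratio was 1.98, beside a median of -0.04 over all measured genes. Their summed level was 17667 CPM in non-contractile PCs, 12709 CPM in contractile mural, 1838 CPM in EC and 511 CPM in intermediate cell barcodes. The lineage factor Ebf1 was the most abundant of them at 2474 CPM. The interferon-induced membrane protein gene Ifitm1 (915 CPM), the metalloreductase Steap4 (643 CPM) and the UDP-glucose receptor P2ry14 (491 CPM) were among the highest ratios. Higd1b, Ndufa4l2 and Cox4i2, mitochondrial proteins used as PC markers, had log2 ratios of 1.52, 1.36 and 1.39. The marker Foxf2 (log2 ratio 0.04) and the intermediate filament desmin (Des, 0.76) were the measured markers that did not reach 2-fold. Atp13a5, Slc6a20a and Zic1 of the same list had no UMI in any mural barcode. The rule itself asked for PC genes, so markers that go with them were favoured by the choice.

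The closest comparison in this library set the 57 barcodes against the 42 contractile mural barcodes, which also differed in depth, ribosomal share and Malat1 as given above. It asks how far mural cells with little smooth muscle actin differ from those with more. Here 79 of 1145 measured genes were at least 2-fold higher (6.9%) and 94 at least 2-fold lower (8.21%), and the median log2 ratio over all genes was -0.15. Among the 15 highest ratios, the inter-alpha-trypsin inhibitor heavy chain gene Itih5 led at 597 CPM, beside 122 CPM in the contractile class (log2 ratio 2.27, 1.62 to 3.02). Abcc9 had a log2 ratio of 2.00 (1.57 to 2.46) and Kcnj8 1.73 (1.28 to 2.22). The collagen chain Col4a4, the protocadherin Pcdh19, the formin Daam1, the homeobox gene Zfhx4, Rem1, Raph1, Nipbl, Mast4, PISD and Igf1r were also among the 15. Apoe was in the same set at 1.98 (1.06 to 3.09), yet 46.2% of its 39 UMIs came from 1 barcode, and the log2 ratio was 1.16 without the 3 barcodes that stood apart. Of the 25 PC markers outside the rule, 24 were measured in this contrast, with 6 at least 2-fold higher (Abcc9, Kcnj8, Ifitm1, Steap4 and P2ry14 among them), 1 at least 2-fold lower (Des, 0 without the 3 barcodes that stood apart) and a median log2 ratio of 0.47. Rgs5, a rule gene, was at 9032 and 8863 CPM in the 2 classes, the latter made of 13355 CPM in 26 barcodes with 3 to 50 smooth muscle UMIs and 4155 CPM in 16 with over 50. Steap4 differed mainly from those 16, since against the other 26 its log2 ratio was 0.39 (-0.11 to 0.94).

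Genes of the contractile apparatus were among the 94 that were lower. The classes were divided by UMIs of Acta2, Tagln and Myh11, so genes that rise with these would be lower by the choice itself. Of 19 measured contractile genes outside the rule, 12 were at least 2-fold lower and 0 higher, beside 8.21% and 6.9% of all genes, with a median log2 ratio of -1.63. Against the 16 contractile mural barcodes with over 50 smooth muscle UMIs, 13 of 15 were lower, beside 20.0% of all genes. Against the 26 with 3 to 50 it was 5 of 14, beside 2.79%. Phospholamban (Pln), which restrains the calcium pump of the sarcoplasmic reticulum, had 2 UMIs in the 57 barcodes, both in 1 barcode, against 72 in the 42, a log2 ratio of -4.53 (-7.92 to -2.94). All 72 lay in the 16 barcodes with over 50 smooth muscle UMIs, and the 26 with 3 to 50 had 0. Mustn1 was at 53.1 against 911 CPM (-4.02, -5.34 to -3.09), the tropomyosin Tpm1 at 371 against 2018 CPM (-2.43, -2.87 to -2.03), the LIM protein Crip1 at 676 against 3862 CPM (-2.51, -2.83 to -2.21) and Tpm2 at 504 against 1812 CPM (-1.84, -2.22 to -1.48). Other genes of the apparatus were still present. The myosin light chain Myl9 was found in 51 of the 57 barcodes at 1512 CPM (log2 ratio -1.18, -1.41 to -0.97), caldesmon (Cald1) in 52 at 1167 CPM (-0.45, -0.73 to -0.18) and the myosin light chain kinase Mylk in 28 at 345 CPM (-0.85, -1.36 to -0.38). Smtn (0.16, -0.58 to 0.88) and the L-type calcium channel Cacna1c (0.15, -0.60 to 0.89) were within counting error of the contractile class. Against all other barcodes, 5 of 22 measured genes of this list were at least 2-fold higher and 6 lower, beside 13.2% and 17.4% of all genes, with Actn1 losing and Lmod1 gaining the call without the 3 barcodes that stood apart.

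The 15 lowest ratios include Acta2, Tagln and Myh11, whose UMIs divided the classes. The others of the 15 not named above were Nrip2, Ctgf, Gadd45g, Rasd1, Klf2 and Pdlim3, with Tesc and Csrp1 from the contractile list. Klf2, a factor induced by shear stress in ECs, stood at 186 against 1038 CPM (log2 ratio -2.46, -3.11 to -1.91), and at 2928 CPM in all other barcodes. Ctgf had 2 UMIs and Csrp1 14 UMIs in the 57 barcodes, of which 2 and 12 belonged to the 3 that stood apart, so that the log2 ratio of Csrp1 moved from -2.25 to -4.59 without them. Nrip2, Tesc and Gadd45g had 2, 2 and 3 UMIs in the 57 barcodes.

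**Figure D3:**
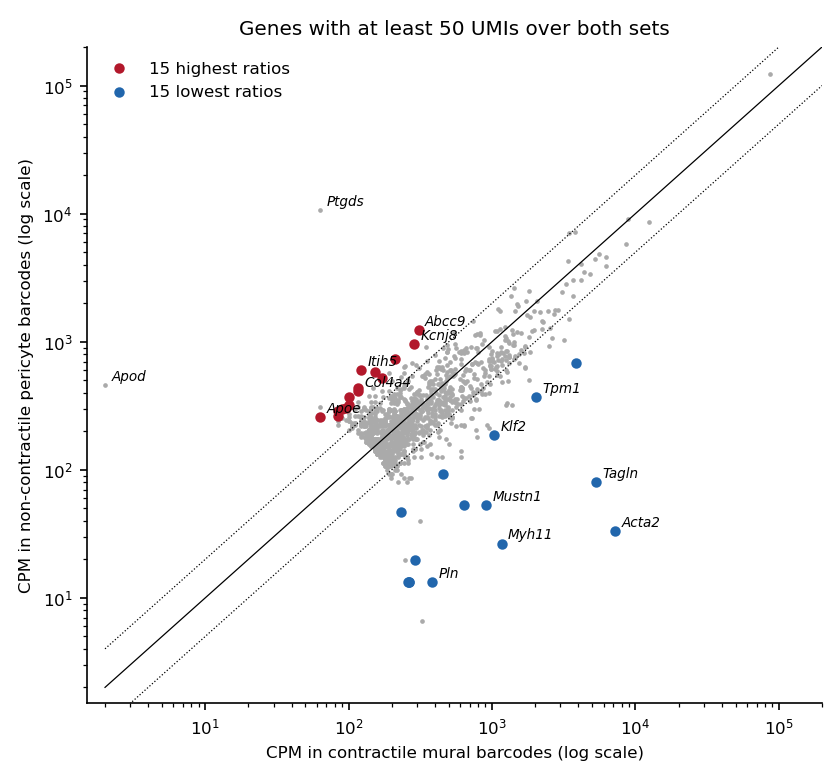
CPM of the summed UMIs in 57 non-contractile PC barcodes against 42 contractile mural barcodes, both axes on a log scale, 1 point for each of 1145 genes with at least 50 UMIs over both sets, with values under 2 CPM drawn at 2. The solid line marks equal levels, the dotted lines 2-fold, red and blue the 15 highest and lowest ratios among widely found genes. The 15 lowest include the rule genes Acta2, Tagln and Myh11. Ptgds and Apod, far above the line, come almost wholly from the 2 deepest barcodes.

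The limit of 2 UMIs did not fall at the largest change in level, and barcodes just above it still held both channel genes. For each gene given here, that change lay between 6 to 50 and over 50 UMIs. Sorted by UMIs of Acta2, Tagln and Myh11, barcodes with 0 (41 barcodes), 1 to 2 (16), 3 to 5 (12), 6 to 50 (14) and over 50 (16) had Kcnj8 at 1014, 840, 501, 600 and 0 CPM. For Abcc9 the levels were 1396, 918, 576, 600 and 10.9 CPM. In the 16 barcodes with over 50 UMIs, which had a median of 5942 UMIs, Kcnj8 had no UMI, so that the level in non-contractile PCs was at least 29.3-fold higher, taking 3 counts over the group as the floor. Against the 26 barcodes with 3 to 50 UMIs the log2 ratio of Kcnj8 was 0.76 (0.31 to 1.25) and that of Abcc9 1.05 (0.63 to 1.52). Vtn, a rule gene, ran at 6878, 7286, 6014 and 6263 CPM in the first 4 steps and at 618 CPM in the last. Pln had 0 UMIs in the 26 barcodes with 3 to 50 UMIs, which allows a level of up to 31.1 CPM, and stood at 781 CPM (611 to 984) with over 50. Tpm1 stood at 371 CPM both with 0 and with 1 to 2 UMIs, and at 727, 1111 and 3136 CPM with 3 to 5, 6 to 50 and over 50. The counts of genes past 2-fold followed the same division. They were 24 higher and 22 lower of 789 measured genes (3.04% and 2.79%) against the 26 barcodes with 3 to 50 UMIs, and 127 higher and 148 lower of 741 (17.1% and 20.0%) against the 16 with over 50. Just inside the limit, the 5 barcodes with 2 UMIs had Kcnj8 at 1316 CPM (767 to 2108) and Abcc9 at 1316 CPM. Just outside, the 5 with 3 UMIs had Kcnj8 at 622 CPM (321 to 1086) and Abcc9 at 673 CPM. Depth and composition moved with these steps, with median UMIs of 2268 at the lowest step and 5942 at the highest, ribosomal protein genes at 4.31% and 9.73% of UMIs, and Malat1 at 13.1% and 7.45%. The part of depth and composition in these differences was not tested.

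**Figure D4:**
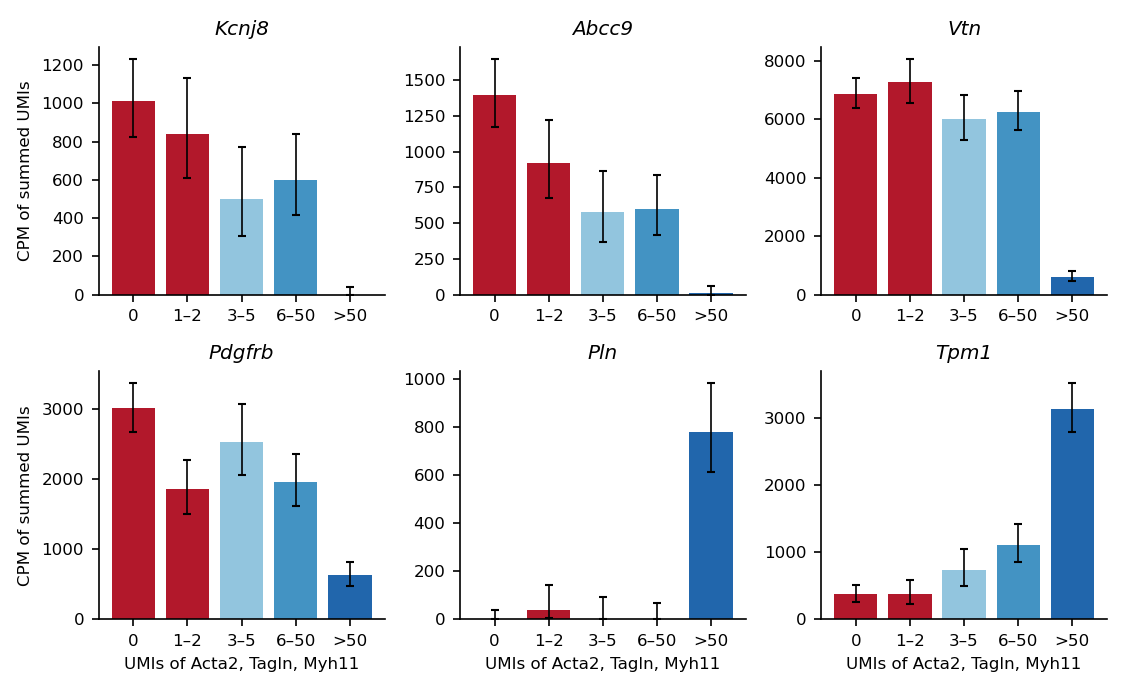
CPM of the summed UMIs of 6 genes in barcodes grouped by their UMIs of Acta2, Tagln and Myh11, with exact Poisson 95% intervals as error bars. Red bars are the 57 non-contractile PCs (41 and 16 barcodes), blue bars the contractile mural barcodes (12, 14 and 16). Kcnj8, Abcc9, Vtn and Pdgfrb are lowest and Pln and Tpm1 highest in the barcodes with over 50 UMIs.

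Genes of the vessel wall matrix were among those that set non-contractile PCs apart from the rest of the library. Of 22 measured genes of basement membrane and matrix, 13 were at least 2-fold higher than in the other barcodes and 0 lower (median log2 ratio 1.67), and of 18 measured against the contractile class 5 were higher and 0 lower (median 0.58). Over all genes the shares were 13.2% higher and 17.4% lower in the first contrast and 6.9% and 8.21% in the second. The 13 include the fibroblast markers Col1a2 and Col3a1, and the whole fibrocyte and fibroblast list was at 630 CPM in non-contractile PCs beside 109 CPM in all other barcodes. Col1a1 and Lum had no UMI in either set, and Dcn had none in non-contractile PCs. The part of this list in the matrix counts was not tested. With every barcode thinned to 1467 UMIs, 3 of 11 measured matrix genes were at least 2-fold higher than in the other barcodes, beside 12.0% of all genes so measured. The type IV collagen chain Col4a4 was at 411 CPM against 51.8 CPM in the other barcodes and 117 CPM in contractile mural barcodes. The widely used chain Col4a1 was higher in level, at 869 CPM, and its log2 ratio to the contractile class was 0.45 (0.08 to 0.82). The laminin chains Lama2 (438 CPM), Lama4 (285 CPM) and Lamc1 (676 CPM) had log2 ratios of 1.55 (0.90 to 2.25), 1.04 (0.31 to 1.81) and 1.29 (0.80 to 1.81) against the contractile class. Nidogen (Nid1) was at 0.83 (0.21 to 1.47). Lamb1, with 8 UMIs in the contractile class, fell under the minimum of 50. Osteopontin (Spp1) passed 2-fold at 1.11 (0.41 to 1.86), with its 47 UMIs in 9 barcodes. Perlecan (Hspg2, -0.29, -1.63 to 0.69) and fibronectin (Fn1, -0.01, -1.26 to 0.93) were within counting error of the other barcodes, with Fn1 at -0.89 on 4 UMIs without the 3 barcodes that stood apart.

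Of 12 measured genes of integrins, junctions and cell adhesion, 9 were at least 2-fold higher than in the other barcodes (8 without the 3 barcodes that stood apart, where Jam3 was at 0.99) and 1 (Itga6) lower, beside 13.2% and 17.4% of all genes. The laminin-binding Itga7 (338 CPM) was the only one of 9 past 2-fold against the contractile class, where 6.9% of all genes were higher, at a log2 ratio of 1.13 (0.45 to 1.85), and the collagen-binding Itga1 (577 CPM) was at 0.72 (0.24 to 1.21). The shared beta chain Itgb1 was at 703 CPM, with a log2 ratio to the other barcodes of 0.51 (0.19 to 0.81). The connexins Gja4 (603 CPM) and Gjc1 (491 CPM), which form gap junctions of mural cells, had log2 ratios of 2.08 and 1.20 against the other barcodes and of 0.22 (-0.21 to 0.64) and -0.35 (-0.79 to 0.08) against the contractile class.

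Receptors and enzymes of vasomotor signalling summed to 5286 CPM (4925 to 5666) in non-contractile PCs and 4196 CPM (3909 to 4499) in contractile mural barcodes. Of 13 measured genes, 10 were at least 2-fold higher than in the other barcodes and 1 (S1pr1) lower, whereas against the contractile class 1 of 9 (P2ry14) was higher (2 without the 3 barcodes that stood apart, with Htr1b added) and 0 lower, with a median log2 ratio of 0.50 beside -0.15 over all genes. The shares of all genes were 13.2% and 17.4%, and 6.9% and 8.21% against the contractile class. The endothelin receptor Ednra was at 637 CPM against 429 CPM in contractile mural barcodes (log2 ratio 0.57, 0.13 to 1.01). The subunits of soluble guanylate cyclase, the nitric oxide sensor, were at 895 CPM for Gucy1a3 (0.22, -0.13 to 0.57) and 1154 CPM for Gucy1b3 (0.56, 0.23 to 0.88). The cGMP phosphodiesterase Pde5a (-0.25, -0.78 to 0.27) and Pde3a (-0.12, -0.70 to 0.44) overlapped between the 2 classes within counting error. Of 15 measured ion channels and pumps, 8 were at least 2-fold higher than in the other barcodes and 3 lower, beside 13.2% and 17.4% of all genes. The lower ones included the sodium pump beta subunits Atp1b1 and Atp1b3, while the beta subunit Atp1b2 (597 against 159 CPM) was higher. Against the contractile class, 3 of 10 were higher, Abcc9 and Kcnj8 among them, and 0 lower, beside 6.9% and 8.21% of all genes.

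Of 23 measured mural transcription factors, 12 were at least 2-fold higher and 3 lower than in the other barcodes, where 13.2% of all genes were higher and 17.4% lower, and 2 higher and 1 lower of 20 against the contractile class, where 6.9% of all genes were higher and 8.21% lower. Hic1, a repressor found in mesenchymal cells, was at 252 against 90.1 CPM in contractile mural barcodes (log2 ratio 1.46, 0.62 to 2.40) and the mesenchymal homeobox factor Prrx1 at 219 against 106 CPM (1.03, 0.20 to 1.93). Klf2 was the 1 that was lower. Without the 3 barcodes that stood apart 3 were higher, with Mef2a added, and 2 lower, with Klf4 added. The orphan receptors Nr2f1 (968 CPM) and Nr2f2 (829 CPM) had log2 ratios of 0.81 (0.44 to 1.19) and 0.49 (0.11 to 0.88). Tbx18, a PC and smooth muscle factor, was at 219 CPM (0.61, -0.16 to 1.40) and Foxs1 at 385 CPM (-0.15, -0.67 to 0.35). In the Notch pathway 2 of 8 measured genes, the targets Heyl and Hey2, were at least 2-fold higher than in the other barcodes and 0 lower, on the same background. Without the 3 barcodes that stood apart 5 of 8 were higher, with Jag1, Notch1 and Rbpj added. Of 4 measured against the contractile class none passed 2-fold. There the ligand Jag1 was at 265 against 472 CPM (-0.82, -1.41 to -0.28).

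Among PDGF, angiopoietin and VEGF genes, 3 of 14 were at least 2-fold higher (Mdk, Nrp1 and Pgf) and 9 lower than in the other barcodes. The share of all genes was 13.2% higher and 17.4% lower. The 9 included the endothelial genes Tek, Tie1 and Kdr, Flt1, which the rule used, and Pdgfb, whose log2 ratio went from -1.12 to -0.93 without the 3 barcodes that stood apart, leaving 8. The ligand Pdgfa was lower than in contractile mural barcodes, at 126 against 609 CPM (log2 ratio -2.24, -3.06 to -1.57), the growth factor midkine (Mdk) higher at 225 against 111 CPM (1.01, 0.19 to 1.88, and 0.97 without the 3 barcodes that stood apart), and 4 genes of the list were measured there. The counts of the next lists stand beside 13.2% of all genes higher and 17.4% lower than in the other barcodes, and 6.9% and 8.21% against the contractile class. The TGF-beta and BMP list had 3 of 19 higher and 6 lower than in the other barcodes, solute carriers 3 of 12 and 5, RGS regulators 1 of 3 and 0, iron and metal handling 1 of 6 and 4, chemokine, interferon and MHC class I genes 3 of 18 and 8, vesicle trafficking 1 of 15 and 3, and glycolysis and hypoxia response 3 of 22 and 8. The 3 higher genes of the last list were Higd1b, Cox4i2 and Ndufa4l2, which are also on the PC list. Against the contractile class 0 of 3, 0 of 4, 0 of 1, 0 of 4, 2 of 9, 0 of 9 and 0 of 11 genes of these lists were higher in the same order, and 0, 0, 0, 1, 0, 2 and 1 were lower. Without the 3 barcodes that stood apart Bmpr2, Cp and Il34 were added to the higher genes of the TGF-beta, iron and chemokine lists there, Cd9 to the lower vesicle genes and Pgam1 to the lower glycolysis genes. Against the other barcodes 10 glycolysis genes were then lower, in place of 8. The lower genes there went from 6 to 5 in the TGF-beta list and from 8 to 7 in the chemokine list. They went from 5 to 6 among solute carriers and from 4 to 5 in the iron list. Vesicle genes went from 1 to 2 higher and from 3 to 4 lower.

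**Figure D5:**
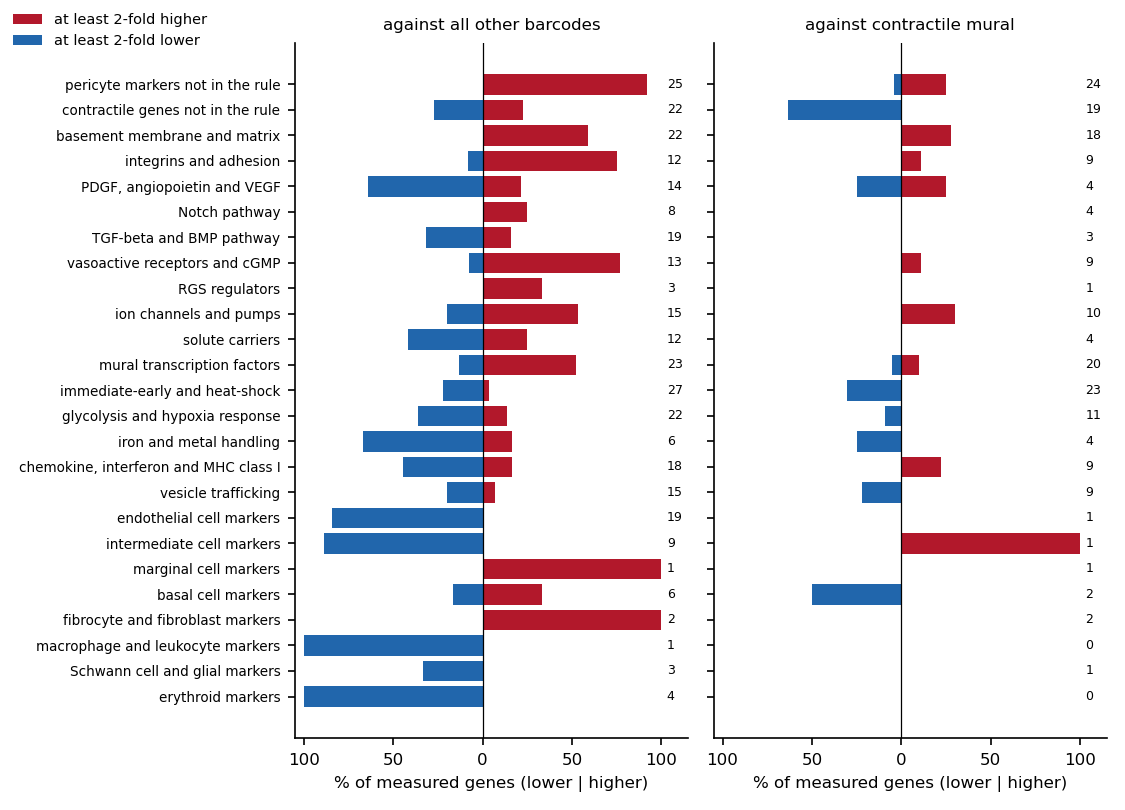
Percent of the measured genes of each of 25 lists that were at least 2-fold higher (red, to the right) or lower (blue, to the left) in non-contractile PCs than in all other barcodes (left panel) or in contractile mural barcodes (right panel). Numbers at the right give the measured genes, with 23 of 25 PC markers higher in the left panel and 12 of 19 contractile genes lower in the right panel. Over all genes 13.2% were higher in the first contrast and 8.21% lower in the second. The rule itself chose barcodes by PC, EC and smooth muscle genes.

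Markers of the other cells of the SV were counted in full, and their part in the results was not tested. EC markers summed to 809 CPM in non-contractile PCs, beside 11787 CPM in EC barcodes. Of that list's 20 genes, 12 were at 0, Tek, Tie1, Kdr, Cd34 and Vwf among them, and the adhesion gene Esam gave 63 of the 122 UMIs and stood at 498 CPM in contractile mural barcodes too. Of 19 measured EC markers, 16 were at least 2-fold lower than in the other barcodes and 0 higher, beside 17.4% and 13.2% of all genes. The rule itself limited EC genes. Intermediate cell markers summed to 610 CPM, beside 15838 CPM in intermediate cell and 196 CPM in contractile mural barcodes. Tyrp1, Pmel, Met and Sox10 were at 0, of which Tyrp1 had no UMI in intermediate cell barcodes either. Gsta4 gave 47 of the 92 UMIs, 40 of them in the 3 barcodes that stood apart. Without those 3 the sum was 319 CPM, and Gsta4, the 1 gene of the list measured against the contractile class, went from a log2 ratio of 2.25 to -0.22. Basal cell markers summed to 1718 CPM, and to 1183 CPM without the 3 barcodes, which held all UMIs of Cldn11 and Gjb2. Their sum was 954 CPM in contractile mural and 1069 CPM in all other barcodes. In non-contractile PCs they were led by Nr2f2 with 125 UMIs, a gene that is also on the PC list. Marginal cell markers summed to 643 CPM, beside 466 CPM in contractile mural and 199 CPM in all other barcodes. Atp1b2 gave 597 CPM of the 643, with Kcnq1, Kcne1 and Esrrb at 0. All 3 were at 0 in contractile mural barcodes too, and Esrrb was at 0 in all other barcodes. Fibrocyte and fibroblast markers summed to 630 CPM, beside 366 CPM in contractile mural and 109 CPM in all other barcodes. In non-contractile PCs Col1a2 led them with 46 UMIs. Col1a1, Dcn and Lum were at 0 there, and Col1a1 and Lum were at 0 in all other barcodes too. Macrophage and leukocyte markers had 9 UMIs with Ptprc, Csf1r and C1qa at 0, and Ptprc had none in the other barcodes either. Schwann cell and glial markers had 82, of which Pmp22 gave 49 and S100b 29, with Mbp at 0. Outside the intermediate cell barcodes Mbp had no UMI in any class. Of the S100b UMIs 1 lay outside the 3 barcodes, and without them this list was at 357 CPM, beside 544 CPM with them. Erythroid markers had 5 UMIs in the 57 barcodes and 9033 UMIs in the other 144, where 4435 of the 4439 UMIs of Hbb-bs lay in 1 barcode.

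Among the 57 barcodes, Malat1 was the most abundant gene outside the mitochondrial and ribosomal protein genes. Ptgds came next at 10704 CPM, a rank that vanished without the 3 barcodes that stood apart, where its level was 53.1 CPM. Rgs5 (9032 CPM), Actb (8668 CPM), Gm42418 (7222 CPM, a gene model that overlaps ribosomal RNA), Vtn (7016 CPM), the immediate-early factor Fos (5743 CPM), the secreted binding protein Igfbp7 (4801 CPM), Tmsb4x, the calcification inhibitor Mgp (4277 CPM), Itm2b, Junb, Jun, Jund and H3f3b completed the 15. Of 23 measured immediate-early and heat-shock genes, 0 were at least 2-fold higher than in the contractile class and 7 were lower. Over all genes 6.9% were higher and 8.21% lower. The lowest ratios were those of Gadd45g and Cdkn1a, which had only 3 UMIs each in the 57 barcodes. Atf3 came next on 48 UMIs (log2 ratio -1.96, -2.45 to -1.52). Without the 3 barcodes that stood apart 5 of 22 were lower, with Btg2 and Cdkn1a lost from the count. Against the other barcodes 1 of 27 was higher (Hspa1a) and 6 lower, beside 13.2% and 17.4% of all genes. Without the 3 barcodes 7 were lower there, with Ier2 added.

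Immediate-early genes were among those that differed most between single barcodes. After thinning to 1467 UMIs, 318 genes had a mean of at least 0.5 UMIs over 48 barcodes, and their variance was a median of 1.32 times the mean, where counting alone gives 1. Ptgds (187) had the largest ratio, set by the barcodes that stood apart, and Malat1 (22.0), Gm42418 (18.5), Junb (11.1), Fos (10.3), Loxl2 (7.52), Jun (6.39), Actb (5.86), Cebpb (5.81) and Hspa1a (5.65) followed. Fos ranged from 0 UMIs in 13 barcodes to 34 UMIs in 1, with a median of 5.5, and Junb from 0 in 16 to 36. Kcnj8 had a ratio of 1.55 and Abcc9 of 2.38, the latter among the 57 genes over 2. Of the genes that the rule used, Pdgfrb had 1.25, Rgs5 3.67 and Vtn 4.05.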

How the data were processed

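Dissociated SV cells were captured on a 10x Chromium 3′ platform. The authors deposited UMI counts per gene and barcode, not normalized. The submitters' processing notes name bcl2fastq 2.20.0.422 and mm10, the matrix header gives 3.0.0, and the counting program's settings are not given in the sources used here. The authors' own filters and doublet calls were not applied, and no doublet caller was run.

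The members and the 25 gene lists were chosen with earlier results of these data known, and the genes named follow a fixed rule: the 20 highest ratios to all other barcodes and the 15 highest and 15 lowest to contractile mural barcodes (a UMI in at least 25% of the higher set), the 15 most abundant, the 10 most variable, the 17 genes of the rule, and in each list the 4 most abundant and the 2 highest and 2 lowest. Some genes that this rule names are not reported here. Ptgds, Cldn11 and the other genes of the barcodes that stood apart were chosen after their values were seen. UMIs were summed per class and divided by all UMIs of the class (CPM). They count 3′ ends and were not divided by gene length. A gene was measured with at least 50 UMIs over both sets, and ratios used 0.5 counts added to each sum. Intervals are 95% exact Poisson for CPM, Clopper-Pearson for shares and exact conditional binomial for ratios, and cover counting error only. A ratio of at least 2-fold is a description, since 1 library per reporter line allowed no test and no p-value. Single barcodes were compared at 1467 UMIs, the 10th percentile of the library (random seed 1). The ratio and thinning steps were tested on simulated data. Alternatives were other minimums, weights, totals, depths and limits of the rule. Python 3.11.15, numpy 2.4.6, scipy 1.17.1, pandas 2.3.3 and matplotlib 3.10.9 were used. Promoter sequences are from RefSeq and gene positions from GENCODE, both on GRCm38, and 15 of the 20 leading genes matched a promoter entry. The Tie2-GFP library, captured separately, entered no comparison.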

Additional observations from a re-analysis of the deposited data

Results flagged for a closer look

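In the Tie2-GFP library, which entered no comparison, the same rule found 2 of 633 barcodes, with 3702 and 3010 UMIs. They held 7 UMIs of Abcc9, all in the deeper barcode, above the 3 that a count of 0 allows, and 1 UMI of Kcnj8 each. Rgs5 had 69 and 50 UMIs, Pdgfrb 9 and 1, and Vtn 0 and 1. What flagged the value is that it comes from data outside the main measurement.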

How the results depend on the processing

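No named ratio past 2-fold changed sign where the gene was still measured. As reported, more genes were lower than higher in both contrasts (765 and 577, 94 and 79). At a minimum of 20 UMIs, and against contractile mural barcodes with 3 to 50 smooth muscle UMIs, more were higher. Without the 3 barcodes that stood apart, Ptgds and Gsta4 fell under 50 UMIs over both sets and changed sign against contractile mural barcodes, from log2 ratios of 7.34 and 2.25 to -0.22 each. Against all other barcodes Ptgds went from 0.52 to -7.03 and 6 genes past 2-fold changed sign. The share of barcodes chosen was 20.4% with 0 smooth muscle UMIs allowed and between 24.9% and 34.3% under the other limits. Against all other barcodes, the minimum of 20 UMIs gave 1368 genes higher and 1270 lower, the minimum of 200 gave 86 and 253, and thinning gave 102 and 225, with fewer or more genes measured in each. Of the 20 leading genes, 2 were measured at 200 UMIs and 9 after thinning, and all of those were at least 2-fold higher. PC markers had 14 of 15 higher at 200 UMIs, and basement membrane genes, 13 of 22 as reported, had 4 of 10 at 200 and 3 of 11 after thinning. Over all genes 13.2% were higher as reported, 8.89% at 200 UMIs and 12.0% after thinning. Against contractile mural barcodes, 324 genes were higher and 274 lower at 20 UMIs, 5 and 31 at 200, and 16 and 50 after thinning. The contractile list had 7 of 8 lower at 200 UMIs and 7 of 10 after thinning, beside 15.7% and 14.5% of all genes. The limits of the contractile class to over 50 and to 3 to 50 UMIs and leaving out the 3 barcodes were chosen after seeing the data. The class with over 50 smooth muscle UMIs gave 127 higher and 148 lower, and that with 3 to 50 gave 24 and 22, with 5 of 14 of the contractile list lower beside 2.79% of all genes. Of the log2 ratios of named genes, 1445 of 1600 against all other barcodes and 1151 of 1337 against contractile mural barcodes lay within the interval first reported. Depth limits genes with under 50 UMIs, the 9 shallow barcodes and every share of barcodes with a UMI. No paired analysis was possible because each reporter line had 1 library and no result came from a test.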
